A study of Caenorhabditis elegans with 2 samples.

Results

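The 7 genes described here encode the ATPase CDC-48 of Caenorhabditis elegans and its best known partners, and they were taken by name from the 19973 protein-coding genes of the nuclear chromosomes. They are cdc-48.1, cdc-48.2, ufd-1, npl-4.1, npl-4.2, ufd-2 and ufd-3, of which 6 lie on chromosome II and ufd-1 lies on chromosome IV. They were selected on their known role and on peak signals of these data, above all that at cdc-48.1, so peak values are given as a description and were not tested. The study measured chromatin immunoprecipitation followed by sequencing in whole worms that carry K12H6.12 fused at its C-terminus to GFP and FLAG, with an antibody against GFP. It has 1 group: strain OP214, genotype unc-119(ed3) III with the transgene wgIs214, young adults of 72 hours, males and females pooled, grown from starved L1 larvae. The group holds 2 biological replicates, numbered 2 and 3, and both carry the same mutation and transgene. The authors called the peaks of each replicate against 1 control alignment, which was not examined further here. The labels do not say what drives the transgene, and whether a peak marks binding by K12H6.12 was not tested.

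CDC-48, called p97 or VCP in mammals, is a ring-shaped AAA ATPase that pulls ubiquitin-tagged proteins out of complexes, membranes and chromatin and unfolds them, often ahead of the proteasome. UFD-1 and NPL-4 form the adaptor that brings ubiquitin chains to the ring, UFD-2 is a ligase that extends such chains, and UFD-3 is a further ubiquitin-binding cofactor, related to PLAA of mammals and Doa1 of yeast. The worm has a pair of closely related ATPase genes, cdc-48.1 and cdc-48.2, which cover for each other in the embryo.

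Peaks came as 4 lists on build ce11. The shortest, of 2268 peaks, is the authors' IDR list, where IDR stands for irreproducible discovery rate. The others have 30000 peaks of both replicates pooled, 27073 of replicate 2 and 30000 of replicate 3. The pooled and replicate lists are relaxed and reach into background. Signal is the authors' value for each peak, with no unit given. Genes were compared within a list, where rank 1 is the strongest peak. All 2268 IDR peaks were also in the pooled list. The IDR peaks of cdc-48.1, cdc-48.2, ufd-2 and ufd-3 had the same ranks in both, namely 11, 1382, 1215 and 652. Down to these ranks the IDR list thus followed pooled signal and left no pooled peak out. A place in it does not show that the replicates gave a single peak like strength. Ratios between the replicate lists are also given, though the scaling between lists is not stated. The window searched at each gene ran from 2000 bp upstream of the annotated 5′ end to the 3′ end.

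The sequences around the 4 IDR summits at these genes show where the peaks stand. Each stretch runs from 90 bp before to 90 bp after the summit, read 5′ to 3′ on the strand of the gene from the WBcel235 assembly, which is ce11, and none overlaps an annotated gene. Capitals mark a GATA site at cdc-48.2 and a GAGA repeat, read on the other strand, at ufd-2.
cdc-48.1, chrII:10563475-10563655, minus strand: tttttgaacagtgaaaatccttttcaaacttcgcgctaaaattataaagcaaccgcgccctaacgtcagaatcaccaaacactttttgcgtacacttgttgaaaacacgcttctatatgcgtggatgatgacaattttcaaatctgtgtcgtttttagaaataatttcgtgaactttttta
cdc-48.2, chrII:8137467-8137647, plus strand: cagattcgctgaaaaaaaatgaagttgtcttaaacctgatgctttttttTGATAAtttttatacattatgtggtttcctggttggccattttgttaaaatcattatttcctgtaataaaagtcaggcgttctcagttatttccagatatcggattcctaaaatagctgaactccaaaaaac
ufd-2, chrII:8062348-8062528, plus strand: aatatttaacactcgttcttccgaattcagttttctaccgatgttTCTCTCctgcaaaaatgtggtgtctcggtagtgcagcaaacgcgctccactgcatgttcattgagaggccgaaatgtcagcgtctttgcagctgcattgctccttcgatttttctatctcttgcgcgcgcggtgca
ufd-3, chrII:9940564-9940744, plus strand: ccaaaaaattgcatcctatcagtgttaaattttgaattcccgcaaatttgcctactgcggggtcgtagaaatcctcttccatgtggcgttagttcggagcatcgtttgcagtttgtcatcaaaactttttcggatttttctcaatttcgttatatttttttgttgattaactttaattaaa

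Of the 7 genes, 4 had an IDR summit in the window, namely cdc-48.1, cdc-48.2, ufd-2 and ufd-3, each with 1 summit. Across all coding genes 11.4% had one (2275 of 19973). This count was known when the genes were chosen and nothing is read from it. The 4 summits also lay in the narrower promoter window, 1000 bp upstream to 200 bp downstream of the 5′ end, where 7.10% of coding genes had an IDR summit. Of the 2268 strongest peaks of replicate 2 alone, summits fell at the same 4 genes (10.9% of coding genes), and of those of replicate 3 at cdc-48.1, ufd-2 and ufd-3 (11.4%). In the full relaxed lists 5 of the 7 genes, now with ufd-1, had a summit, where 61.7% of coding genes had one in the pooled list, 59.4% in replicate 2 and 67.0% in replicate 3. The windows of the 7 genes spanned 3483 to 5453 bp, against a median of 4027 bp over coding genes.

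The ATPase gene cdc-48.1 (WBGene00007352, chrII:10560036-10563407, minus strand) had the strongest peak of the 7 genes. Its peak, chrII:10563395-10563725, had a signal of 342 in replicate 2, where it ranked 22, of 351 in replicate 3, where it ranked 8, and of 691 in the pooled list, where it ranked 11. An IDR summit at least as strong in the pooled list was found at 15 coding genes, 0.0751% of them. These include cdc-48.1 itself and C06A1.7, whose window takes in the same peak. Both replicates placed it among their strongest few peaks, and their summits lay 2 bp apart. The summit, at chrII:10563565, stood 158 bp upstream of the 5′ end, in the 704 bp between cdc-48.1 and its upstream neighbour C06A1.6, which is transcribed on the same strand. The peak was 331 bp wide, narrower than the 456 bp that is the median of the pooled list, and its edge reached into the start of the gene. The first intron of cdc-48.1 holds the snoRNA gene C06A1.9, whose 5′ end lay 501 bp downstream of the summit. A second snoRNA gene, C06A1.8, sits in intron 3 of the 4 introns, and no IDR summit lay within cdc-48.1 itself.

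The paralog cdc-48.2 (WBGene00008053, chrII:8138496-8141230, plus strand) had a weaker peak, which the replicates ranked far apart. Its peak, chrII:8137329-8137784, had a signal of 98.9 in replicate 2 (rank 800), of 34.2 in replicate 3 (rank 4985) and of 129.7 in the pooled list (rank 1382). The −log10 q-value was 3.5 in replicate 2 and 1.37 in replicate 3, so the peak was weak in replicate 3. The summit stood 939 bp upstream of the 5′ end, inside the 1577 bp that separate cdc-48.2 from ctns-1, a gene transcribed in the opposite direction whose product is related to cystinosin, the lysosomal cystine transporter. The summit was nearer to the 5′ end of ctns-1, at 639 bp, than to that of cdc-48.2. The replicate summits lay 47 bp apart.

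Set side by side, the signal at cdc-48.1 was 3.46 times that at cdc-48.2 in replicate 2, 10.3 times in replicate 3 and 5.33 times in the pooled list. The order was the same in each list. The deposited signal at cdc-48.1 was near equal in the replicates and that at cdc-48.2 was not, though the scaling between the lists is not stated. The ratio of the signal in replicate 2 to that in replicate 3 was 0.974 at cdc-48.1 and 2.89 at cdc-48.2. Over 2245 IDR peaks that had a summit of each replicate within 250 bp, the median of this ratio was 1.17 and the SD of its log2 was 0.62. A ratio at or above that of cdc-48.2 was found at 3.12% of these peaks, and one at or above that of cdc-48.1 at 70.1%. IDR peaks close together could be matched to the same replicate summit, so the SD and these shares include some such pairs.

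The coding sequences of the paralogs were alike in 75.4% of aligned positions (1845 of 2448). Their 1000 bp upstream were alike in 532 of 1102 aligned positions, where a global alignment also matches unrelated sequence in part. The windows shared 7 distinct 31-mers, 0.138% of those of cdc-48.1 and 0.149% of those of cdc-48.2. Within 150 bp of either summit, every 31-mer occurred once in the genome.

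**Figure D1:**
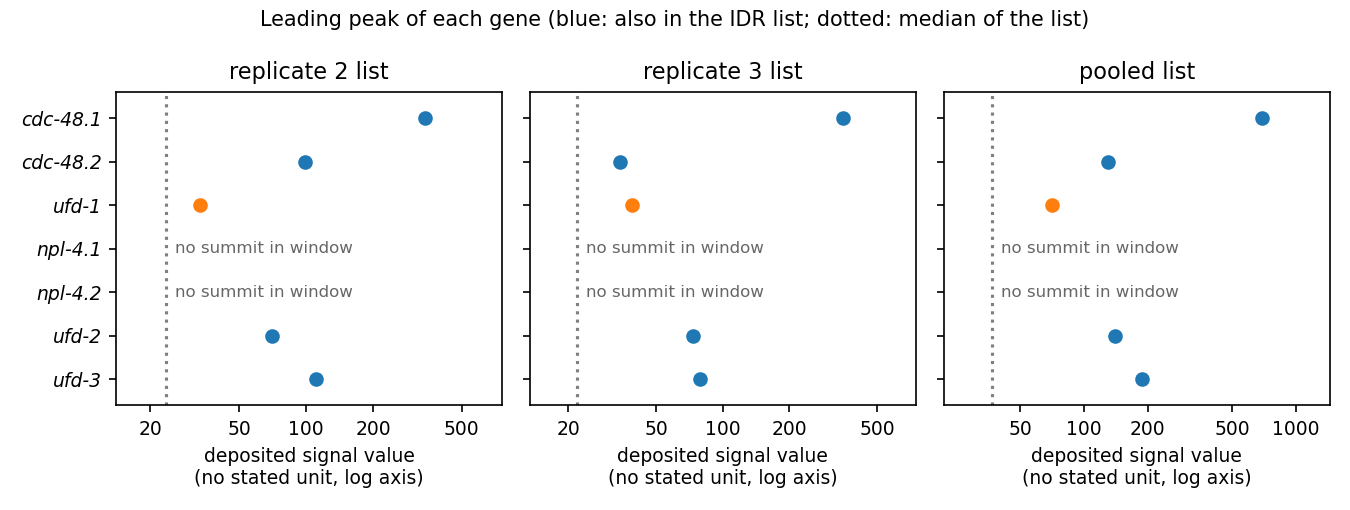
Signal of the leading peak of each gene in the replicate 2, replicate 3 and pooled lists (1 panel each, log axis, no unit given); blue points are peaks also in the IDR list, the orange point is ufd-1, which is not, and the dotted line is the median of the list. cdc-48.1 stands highest in each panel, at 342, 351 and 691, and npl-4.1 and npl-4.2 have no summit.

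The cofactor genes ufd-2 and ufd-3 had IDR peaks close to their 5′ ends that both replicates called with like strength. At ufd-2 (WBGene00006734, chrII:8062741-8066193, plus strand), which encodes the chain-extending ligase, the peak chrII:8062210-8062665 had a signal of 70.1 in replicate 2 (rank 1560), of 73.3 in replicate 3 (rank 982) and of 140.4 in the pooled list (rank 1215). The summit lay 303 bp upstream of the 5′ end, and the replicate summits were 5 bp apart. The ratio of replicate 2 to replicate 3 was 0.955, close to that of cdc-48.1.

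At ufd-3 (WBGene00007333, chrII:9940753-9944107, plus strand) the peak chrII:9940426-9940881 had a signal of 111 in replicate 2 (rank 620), of 79.0 in replicate 3 (rank 834) and of 188 in the pooled list (rank 652). It was the second strongest leading peak of the 7 genes in each list. The summit lay 99 bp upstream of the 5′ end, the nearest of the 4, within the 320 bp between ufd-3 and C05C10.5 on the same strand. The replicate summits were 32 bp apart, and the ratio of replicate 2 to replicate 3 was 1.4. The annotated transcripts of ufd-3 begin at 3 positions that span 2262 bp, and the distance given is from the outermost.

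The adaptor gene ufd-1 (WBGene00006733, chrIV:12329408-12330890, minus strand) did not reach the IDR list. Its leading summit, at chrIV:12331119 and 229 bp upstream, had a signal of 33.3 in replicate 2 (rank 6548), of 38.8 in replicate 3 (rank 3674) and of 71.1 in the pooled list (rank 3968). The weakest IDR peak had a pooled signal of 97.9. The pooled −log10 q-value was 1.91 at ufd-1 and 3.5 at cdc-48.2, the weakest of the 4 IDR peaks at these genes. The value 3.5 is the highest in the pooled list and was also that of cdc-48.1. The replicates agreed on its place to within 16 bp, and the peak was weak in each of the 3 relaxed lists. The summit lies within F19B6.1, a gene on the same strand that ends 85 bp before ufd-1 begins. The pooled peak, chrIV:12330891-12331346, also covers the gap between F19B6.1 and ufd-1.

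**Figure D2:**
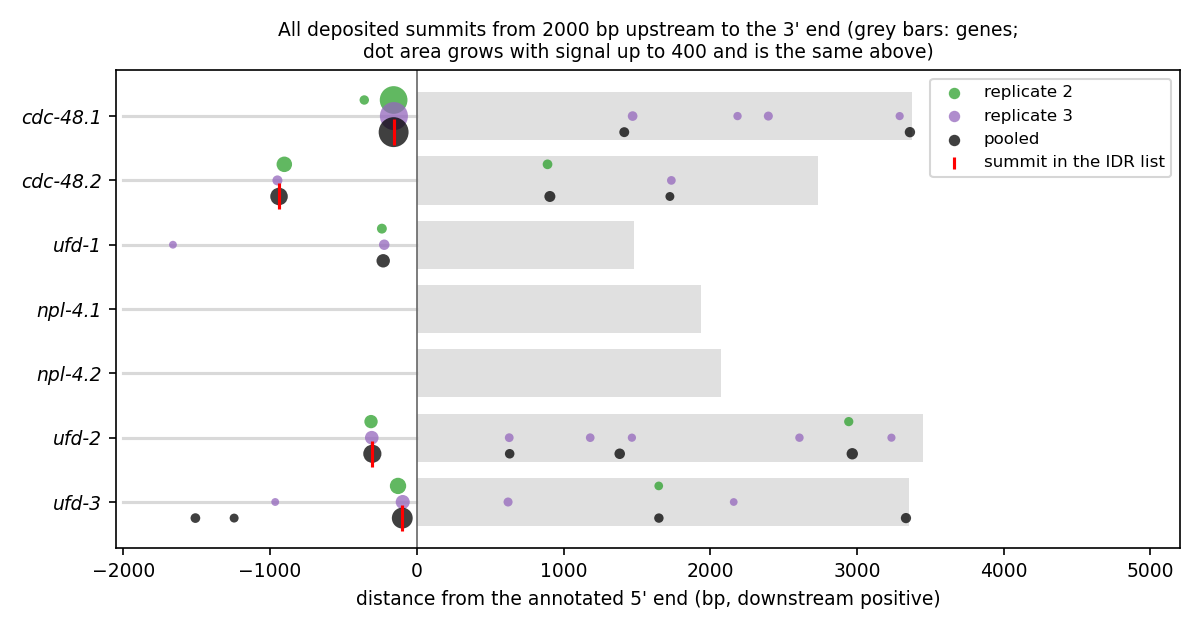
Position of every deposited summit from 2000 bp upstream to the 3′ end of each gene, in bp from the annotated 5′ end (downstream positive), for replicate 2 (green), replicate 3 (purple) and the pooled list (black); grey bars are the genes, red marks are IDR summits and dot area grows with signal. The IDR summits stand 158, 939, 303 and 99 bp upstream of cdc-48.1, cdc-48.2, ufd-2 and ufd-3, and the summits within genes are small.

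The 4 IDR summits, and the leading summit of ufd-1, were upstream of the 5′ end of the gene. Among the 2275 coding genes with an IDR summit in the window, the strongest was upstream at 77.5% (exact binomial 95% interval 75.7 to 79.2) and within 1000 bp upstream at 55.7%. The interval takes genes as independent, though some share a summit. Other summits in the windows were weak. Pooled summits other than the leading ones numbered 2 at cdc-48.1, 2 at cdc-48.2, 3 at ufd-2, 4 at ufd-3 and none at ufd-1, and the strongest of them, at ufd-2, had a signal of 47.7. The weakest, at cdc-48.2, had a signal of 24.8, near the lowest of the pooled list at 24.2, and the median of that list was 37.04.

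**Figure D3:**
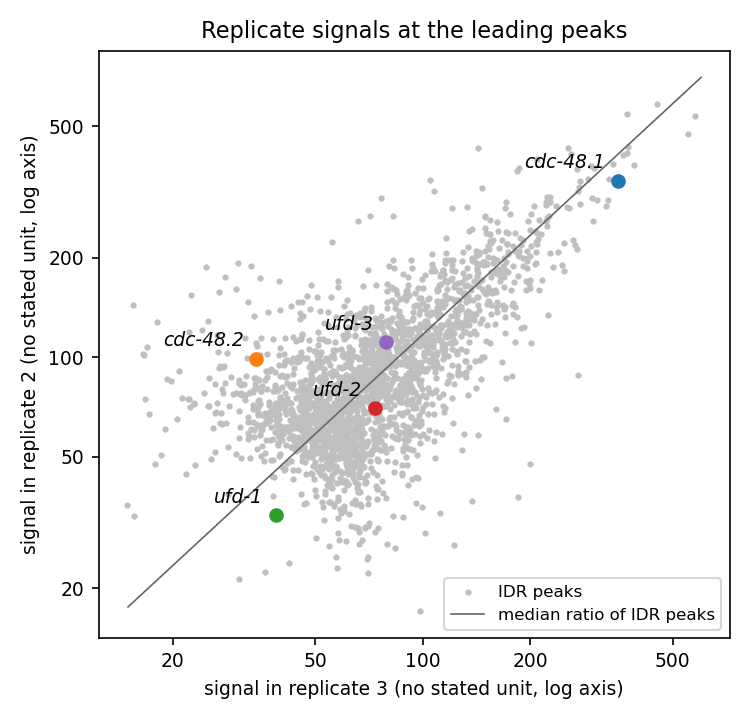
Signal in replicate 2 (vertical) against replicate 3 (horizontal), log axes with no unit given, at 2245 IDR peaks (grey) and at the leading peaks of 5 genes (coloured); the line is the median ratio of 1.17. cdc-48.2, with 98.9 in replicate 2 and 34.2 in replicate 3, lies farthest above the line of the named genes.

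The adaptor genes npl-4.1 (WBGene00019120, chrII:5631351-5633284, plus strand) and npl-4.2 (WBGene00019121, chrII:5622889-5624959, plus strand) had no summit in their windows in any of the 4 lists. The nearest pooled summit lay 5592 bp beyond the window of npl-4.1 and 1479 bp beyond that of npl-4.2. Of all coding genes, 21.5% had no summit in any of the 3 relaxed lists. Their sequences are shown because the copies read the same over the 100 bases before the 5′ end.
npl-4.1, chrII:5631251-5631350, plus strand: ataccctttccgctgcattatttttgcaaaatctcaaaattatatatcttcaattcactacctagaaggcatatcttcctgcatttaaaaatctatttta
npl-4.2, chrII:5622789-5622888, plus strand: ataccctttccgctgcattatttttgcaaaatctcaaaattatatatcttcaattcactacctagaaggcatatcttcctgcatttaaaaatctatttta
The identical stretch ran for 1325 bp upstream of both genes, which lie 6391 bp apart, and their coding sequences differed at 8 of 1587 positions. None of the 31-mers in the 1000 bp upstream of either gene occurred once in the genome. Over the whole window the share that did was 24.2% at npl-4.1 and 24.8% at npl-4.2. For cdc-48.1, cdc-48.2, ufd-1, ufd-2 and ufd-3 the same share was 90.1% or more.

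Among coding genes with under 50% of such unique 31-mers in the window, 438 of 539 (81.3%) had no summit in any relaxed list, against 19.8% of those with 50% or more. Their share with an IDR summit was 1.48%, against 11.7%. No label or header says whether reads that match several places were kept when the peaks were called. The part of repeated sequence in the lack of peaks at the npl-4 genes was not tested.

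**Figure D4:**
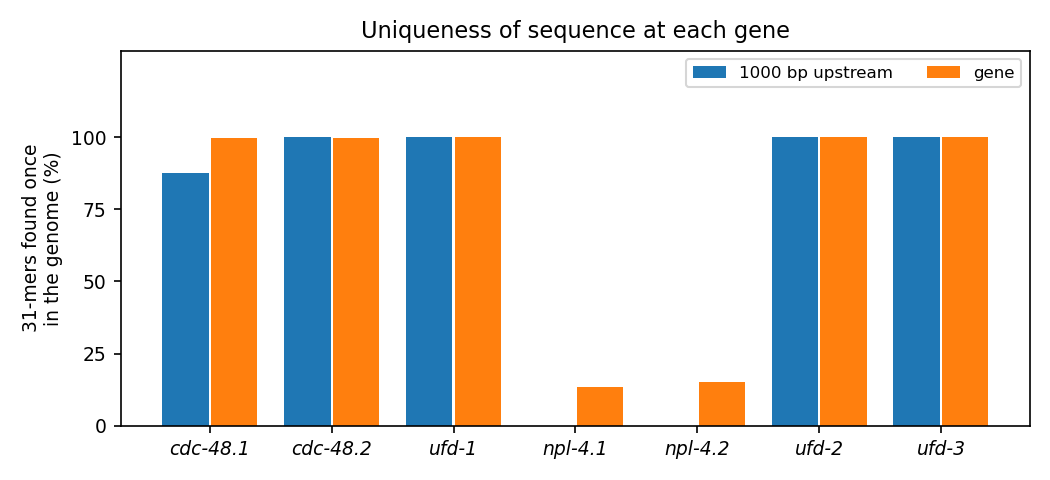
Share of 31-base sequences found once in the genome (percent) in the 1000 bp upstream (blue) and in the gene (orange), for the 7 genes. Upstream of npl-4.1 and npl-4.2 the share is 0, and at the other genes it is 87.5% or more.

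The 4 IDR summit windows differed in which of the motifs searched they held. On both strands, within 150 bp of each IDR summit, GAGAGA, the GAGA repeat, was found at ufd-2 and at none of the other 3 genes, while 53.8% of all IDR windows and 21.8% of coding promoters (250 bp upstream to 50 bp downstream) held it. TGATAA, which GATA factors bind, was found at cdc-48.2, and 14.1% of IDR windows and 30.3% of promoters held it. GAANNTTC, the core of the heat shock element, was found at cdc-48.2, 104 bp upstream of the summit, and at ufd-3, 128 bp upstream, and so outside the stretches printed above. It was held by 12.7% of IDR windows and 18.6% of promoters. CACGTG, a form of the E-box and the only form searched, was in none of the 4 windows, and 10.3% of IDR windows and 5.84% of promoters held it. TGTTTAC, bound by DAF-16, was also in none of the 4, and 5.69% of IDR windows and 4.78% of promoters held it. No 2 of these matches overlapped. The cdc-48.1 window held none of the 5 motifs. The longest run shared by the cdc-48.1 and cdc-48.2 windows on either strand was 8 bases, and by any pair of the 4 windows 12 bases. The share of G and C was 31.9% at cdc-48.1, 36.9% at cdc-48.2, 39.2% at ufd-2 and 36.9% at ufd-3, below the median of 43.9% over IDR windows in each case. The median over coding promoters was 34.2%, and the windows of cdc-48.2, ufd-2 and ufd-3 lay above it.

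Other genes that work with CDC-48 were taken as lists. A list of 12 further cofactors and partners had an IDR summit at 2 genes, where 11.4% of all coding genes had one. At ubxn-3, whose product is related to the p97 cofactor FAF1, the signal was 89.8 in replicate 2, 94.9 in replicate 3 and 177 in the pooled list, 732 bp upstream. At ubql-1, which encodes ubiquilin, a shuttle to the proteasome, it was 139, 144 and 259 in the same lists, 541 bp upstream. The other 10 genes, ubxn-1, ubxn-2, ubxn-4, ubxn-5, ubxn-6, png-1, atx-3, chn-1, cdc-48.3 and rad-23, had none, and the nearest to the threshold was ubxn-2, at a pooled signal of 95.5. Of the 9 genes with a pooled summit in the list of 12, the median of the strongest signal was 49.8, against 47.2 over all coding genes that had one.

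Of 9 genes of endoplasmic reticulum associated degradation, a route in which CDC-48 draws misfolded proteins out of the membrane, 2 had IDR summits, where 11.4% of all coding genes had one. The gene ubc-6, for a ubiquitin-conjugating enzyme of that membrane, had 2, the stronger with a pooled signal of 301.4 and 317 bp upstream. In the replicates its strongest summits had signals of 142 (replicate 2) and 159.8 (replicate 3). The gene cup-2, for a derlin, had a pooled signal of 116, 634 bp upstream, with 70.3 in replicate 2 and 51.1 in replicate 3. The genes sel-1, sel-11, hrdl-1, marc-6, der-2, ubc-7 and ubxn-4 had none. A summit counted for a gene here can lie nearer to another gene.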

How the data were processed

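Peak lists were analysed for 2 biological replicates of 1 group. The authors deposited each list on build ce11, per the file headers: each replicate was called against 1 control alignment, the pooled list on both replicates, and the IDR list was derived from these 3. Nothing in the labels or headers names the caller, its IDR threshold, the aligner or filters. The deposited signal is a score of unstated scaling, and significance was deposited as a −log10 q-value, which reached 3.5 in the IDR list. The deposited summit offset was added to the peak start. Depth is unknown, since peak lists hold no read totals, and intervals cover counting error over genes only.

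Genes were those of Ensembl release 115 (WBcel235), and sequences and 31-mers, with reverse complements merged, came from the RefSeq genome of that assembly. Chromosome lengths held all gene and peak ends. Promoters for motif counts were cut from this genome at the Ensembl 5′ ends. Leading summits were matched between lists within 250 bp. Analyses used Python 3.11.15, pandas 2.3.3, scipy 1.17.1 and Biopython 1.88 (global alignment). Window counts were tested on simulated data, where they equalled a direct count. No comparison of groups was possible.

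The genes, lists, motifs and alternatives were chosen with earlier results of these data known. Named genes were the 7 members, genes with a 5′ end within 1000 bp of a member's IDR summit or holding it, the 3 coding genes just above and just below cdc-48.1 by strongest IDR signal in the window, and up to 6 genes with an IDR summit in each of 4 lists; list genes without one are named or counted. The neighbours C06A1.6, F19B6.1, C05C10.5 and C06A1.8 and the lower-ranked ubxn-2 were added after their values were seen. Alternatives were other upstream limits, overlap in place of summits, stricter and looser lists and each replicate alone.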

Additional observations from a re-analysis of the deposited data

How the results depend on the processing

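Without replicate 2 or without replicate 3, taking the 2268 strongest peaks of the other, 3 to 4 of the 7 genes had a summit; the range was 0 to 1 summits at cdc-48.2, which had none without replicate 2, and 1 in either case at cdc-48.1. The ratio of cdc-48.1 to cdc-48.2 ranged from 3.46 without replicate 3 to 10.3 without replicate 2, and the share of coding genes from 10.9% to 11.4%. With 500 bp upstream, cdc-48.2 had 0 IDR summits, since the summit 939 bp upstream falls outside that window, and 7.59% of coding genes had a summit. The ratio was then 15.7, taken against a weak pooled summit 907 bp downstream of the 5′ end of cdc-48.2, with a signal of 44.0. Among the 1134 strongest IDR peaks, 2 of the 7 genes (cdc-48.1 and ufd-3) and 6.09% of coding genes had one, and cdc-48.2 had 0. In the relaxed pooled list, cdc-48.1 had 3 summits, cdc-48.2 had 3, 5 of the 7 genes had one and so did 61.7% of coding genes. With the promoter window the share of coding genes was 7.10%. Windows of 1000 bp upstream, overlap of the peak interval, pooled peaks with a −log10 q-value above 2 and summits within 100 bp counted once left the counts at these genes as reported. The share of coding genes was 9.12% with 1000 bp upstream, 12.3% with overlap and 16.9% with the q-value limit. No paired analysis was possible because the labels give a single group. The lack of read totals limits what a weak or missing peak can show.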

Other observations

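Other AAA ATPase genes, which encode relatives of CDC-48 with other duties, were listed as a further group. Of 20 genes found under the names used, 6 had an IDR summit in the window, where 11.4% of all coding genes had one, and no test was made. The strongest was at vps-4, whose product takes apart membrane-remodelling polymers, with a pooled signal of 341 and 1450 bp upstream; it was 197 in replicate 2 and 138 in replicate 3. The others were atad-3 (pooled signal 213), a mitochondrial ATPase gene, bcs-1 (169), needed for respiratory complex assembly, nsf-1 (160.4), for membrane fusion, spas-1 (142), for microtubule severing, and rpt-6 (110.1), a proteasome subunit gene. The strongest summits of vps-4, bcs-1 and rpt-6 lay over 1000 bp upstream, and vps-4 had 3 IDR summits and rpt-6 had 2. All 6 lay below the 691 of cdc-48.1, whose signal was known when the genes were chosen. Of the ubiquitin and ubiquitin-activating enzyme genes, ubq-2 had an IDR summit (pooled signal 179.6, 463 bp upstream), and uba-1 had none. At ubq-1 the IDR summit (132) lay 374 bp downstream of the 5′ end. Across all coding genes 11.4% had an IDR summit in the window, and nothing is read from this list.

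Ranked by the strongest IDR signal in the window, cdc-48.1 held place 14 of the 2275 coding genes that had one, tied with C06A1.7, whose window takes in the same peak. Just above came his-35 and his-37, histone genes that share a signal of 730.0, and Y39B6A.43 at 768. Just below came cbp-1, a histone acetyltransferase gene, at 677, and Y17G9B.5 and cyc-2.1, a cytochrome c gene, which share a signal of 676. This likeness rests on 1 value per gene in the pooled list.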
